A study of Mus musculus with 21 samples.

Results

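The genes described here are named for proteins of the mitochondrial ribosome, and they were followed in EL4 cells, a mouse T cell lymphoma line, with an shCTCF or an shLuc hairpin. Members were genes with a row of their own in the deposited expression table under a symbol of the form Mrpl or Mrps plus a number and at most 1 further letter. This gave 66 genes of 21844 symbols in the table, 40 named for the large subunit (Mrpl) and 26 for the small subunit (Mrps). The rule uses symbols only and no measured value. The series as a whole deals with chromatin interactions and CTCF, a zinc finger protein that binds DNA and shapes chromatin loops. It holds 21 samples, of which the 4 poly(A) RNA libraries of the hairpin experiment were used. The first group was 2 libraries of EL4 cells with shCTCF, a short hairpin RNA against Ctcf. The control was 2 libraries of EL4 cells with shLuc, a hairpin against luciferase, a gene mouse cells do not have. The labels give the strain as C57BL/6 for all 4. They name neither separate cultures within a group nor the number of hairpin sequences used, so the p-values rest on a spread among libraries that may be only technical. Libraries are named by the numbers 2 and 3 of the expression table.

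Mitochondria carry a small genome of their own, and the proteins it encodes, all of them subunits of the oxidative phosphorylation complexes, are made on the mitochondrial ribosome inside the organelle. The ribosomal RNAs come from mitochondrial DNA, whereas every protein of the particle is encoded in the nucleus, translated in the cytosol and imported. Some of these proteins descend from ribosomal proteins of bacteria, and others exist only in mitochondria.

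Levels are in RPKM, which divides a gene's reads by its length in kilobases and by the depth of the library, so genes of different length can be compared. Ctcf itself, the target of the hairpin, had 26.5 and 26.4 RPKM in shCTCF libraries, against 49.0 and 50.9 RPKM in shLuc libraries. The difference was −0.89 on the log2(RPKM + 1) scale (SE 0.08, limma, adjusted p = 0.0075). The RPKM values imply library divisors of 4346709 and 5768562 reads for shCTCF libraries 2 and 3, and of 5240361 and 6133045 reads for shLuc libraries 2 and 3. Of the 10 T cell markers listed, 9 had a row of their own, and all 9 had a mean of 1 RPKM or more. Their levels summed to 1538 and 1532 RPKM in shCTCF libraries, against 1752 and 1758 RPKM in shLuc libraries. Thy1, the highest of the 9, had 498 and 468 RPKM in shCTCF libraries, against 640 and 590 RPKM in shLuc libraries. Both shCTCF libraries lay below both shLuc libraries in 6 of the 9 (66.7%), beside 19.9% of all tested genes. The groups of the other 3, Cd3d, Cd3e and Cd3g, overlapped. Among the 9, 1 marker, Bcl11b, was called lower (−0.58, adjusted p = 0.035 in limma). None of 5 B cell, 5 fibroblast or 4 epithelial markers reached a mean of 1 RPKM, and the epithelial markers were listed at 0 throughout. Of 6 myeloid markers with a row, only Itgam did, and their sum was 3.10 and 2.14 RPKM in shCTCF libraries, against 2.40 and 3.63 RPKM in shLuc libraries. The part of the T cell marker shift in the values below was not tested, and in bulk RNA fewer cells of a type and less RNA per cell cannot be told apart.

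Promoter sequence is shown for 3 members: Mrps16, the member whose level differed most between the hairpins, Mrpl21, the next by p-value among the members higher in shCTCF cells, and Mrpl12, the member with the highest level. The sequences are upstream stretches from RefSeq, build GRCm38.p6, read 5′ to 3′ on the strand of the gene. Capitals mark a GC box of the kind bound by SP1 in Mrps16, at chr14:20393635-20393884 on the minus strand, and an NRF1 motif in Mrpl12, at chr11:120484387-120484636 on the plus strand. The stretch of Mrpl21, at chr19:3282792-3282996 on the plus strand, held none of the 6 motifs searched, while an ETS motif was matched further on in its RefSeq window and in a second window of Mrps16.
Mrps16: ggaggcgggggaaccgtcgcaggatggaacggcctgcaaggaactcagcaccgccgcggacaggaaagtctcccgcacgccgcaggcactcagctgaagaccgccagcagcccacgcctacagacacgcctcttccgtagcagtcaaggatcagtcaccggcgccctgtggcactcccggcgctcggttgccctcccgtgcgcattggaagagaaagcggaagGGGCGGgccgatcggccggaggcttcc
Mrpl21: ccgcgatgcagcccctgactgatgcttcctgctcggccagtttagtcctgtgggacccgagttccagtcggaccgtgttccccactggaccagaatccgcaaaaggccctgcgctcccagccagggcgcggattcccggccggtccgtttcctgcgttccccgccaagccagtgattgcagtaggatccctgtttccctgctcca
Mrpl12: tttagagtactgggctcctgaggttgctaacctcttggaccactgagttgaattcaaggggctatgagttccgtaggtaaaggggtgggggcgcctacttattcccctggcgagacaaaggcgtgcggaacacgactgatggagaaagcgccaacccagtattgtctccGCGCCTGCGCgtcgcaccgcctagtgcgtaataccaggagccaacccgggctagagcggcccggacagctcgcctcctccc

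All 66 members were clearly expressed in both groups. Mean levels over the 4 libraries ran over a 14.5-fold range, with 13 members below 20 RPKM, 41 between 20 and 60 RPKM and 12 at 60 RPKM or more. The highest was Mrpl12, which forms the flexible stalk of the large subunit that engages translation factors, with 136 and 132 RPKM in shCTCF libraries, against 114 and 123 RPKM in shLuc libraries. Both shCTCF values lay above both shLuc values, and the difference of 0.18 (SE 0.08) did not pass the test (limma, adjusted p = 0.36). Mrps16, a small subunit protein with a bacterial counterpart, was second and is described below. Mrpl33 had 100.2 and 97.5 RPKM in shCTCF libraries, against 93.8 and 89.2 RPKM in shLuc libraries. Mrpl42 had 84.6 and 95.8 RPKM in shCTCF libraries, against 83.4 and 95.5 RPKM in shLuc libraries, so that its groups overlapped almost entirely. The log2 differences of Mrpl33 (0.11, SE 0.08) and Mrpl42 (0.01, SE 0.10) did not pass the test in limma, with adjusted p = 0.59 and 0.98, and their order in level is within the spread of the libraries. The lowest was Mrpl35, with 8.90 and 7.79 RPKM in shCTCF libraries, against 8.57 and 9.49 RPKM in shLuc libraries. Since this lowest mean, 8.69 RPKM, exceeded the minimum of 1 RPKM for testing, all 66 members were tested. Across the 66 members, the log2 levels of the shCTCF and shLuc means had a Pearson r of 0.985, beside 0.971 between the shCTCF libraries and 0.981 between the shLuc libraries. Genes are not independent replicates, and this is a description only.

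**Figure D1:**
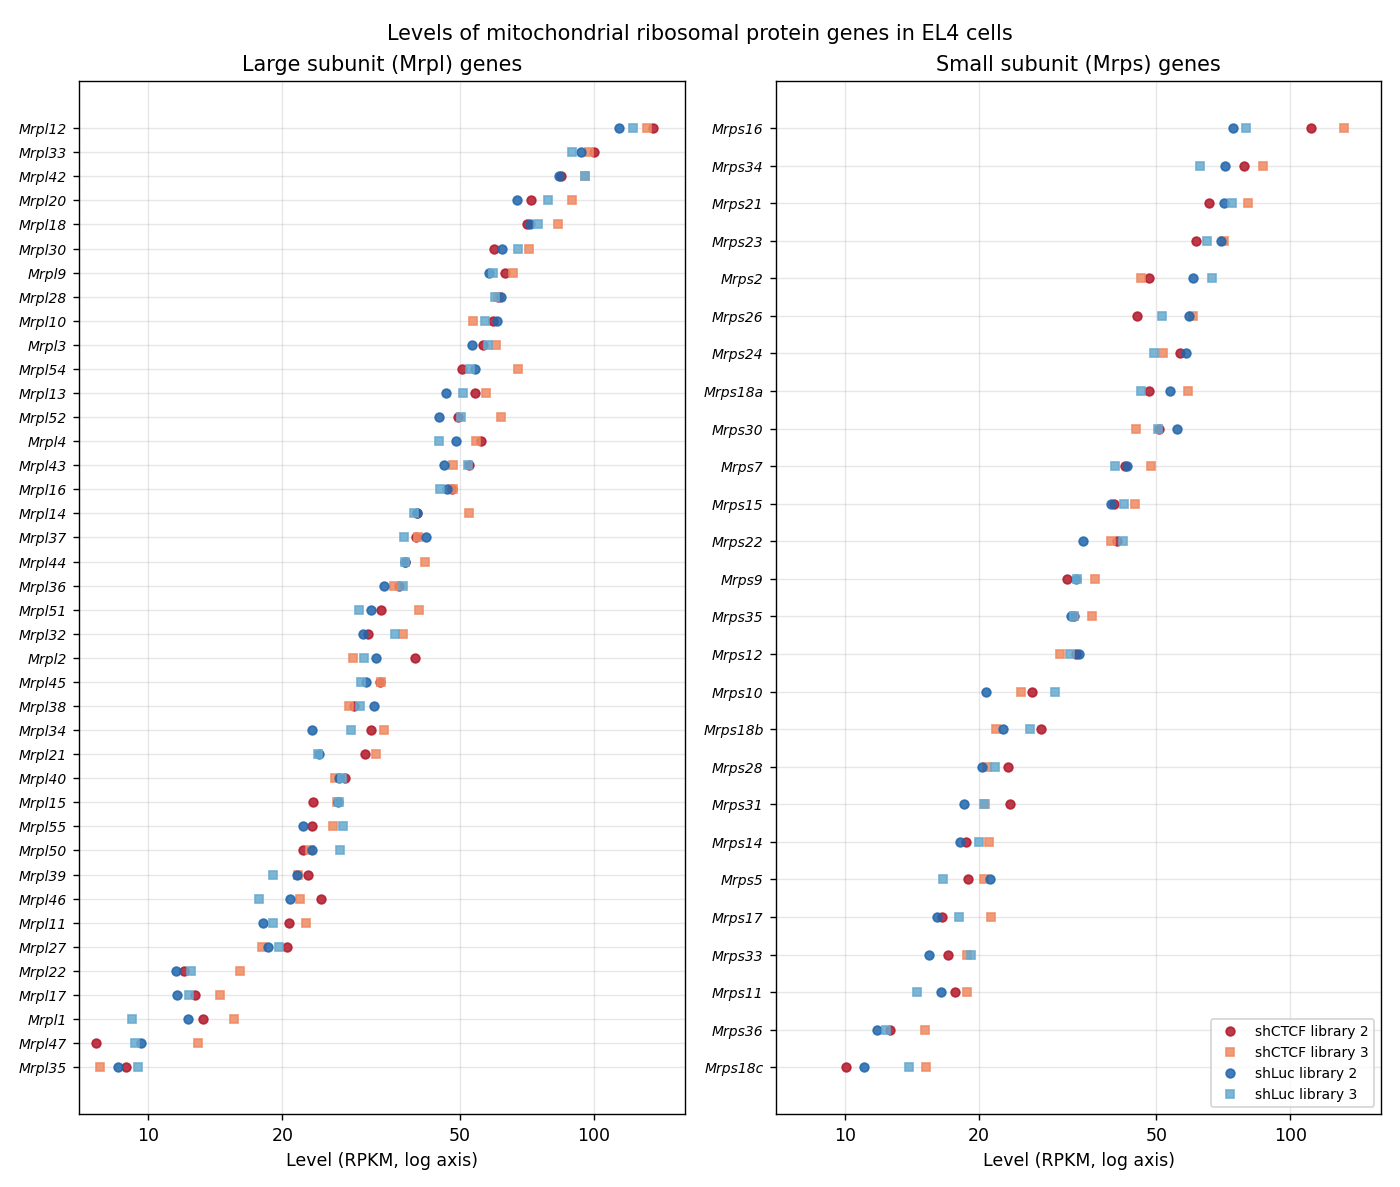
Level of each of the 66 members in RPKM (log axis) in each library, ordered by mean level, with large subunit genes on the left and small subunit genes on the right. Circles are library 2 and squares library 3, shCTCF in reds and shLuc in blues. The shCTCF points lie to the right of the shLuc points for Mrps16 (111 and 132 against 74.5 and 79.5 RPKM) and to their left for Mrps2 (48.1 and 46.1 against 60.6 and 66.7 RPKM).

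Mrps16 was the 1 member of 66 that passed the test across all genes. Its level was 111 and 132 RPKM in shCTCF libraries, against 74.5 and 79.5 RPKM in shLuc libraries. Both shCTCF libraries lay far above both shLuc libraries, although the shCTCF libraries also differed from each other. The means were 122 ± 14.4 RPKM in shCTCF cells and 77.0 ± 3.53 RPKM in shLuc cells (SD, n = 2 each). The log2 difference was 0.65 (SE 0.10, limma with Benjamini-Hochberg adjustment over 9898 genes, adjusted p = 0.022). The values rest on 274 and 430 recovered reads in shCTCF libraries, against 221 and 276 in shLuc libraries, over a recovered gene model of 566 bp. The authors' deposited table of changed genes also lists Mrps16 as higher, with a log2 fold change of 0.65 and an FDR of 1.2e-05. Mutations of its human counterpart are known from a rare combined deficiency of oxidative phosphorylation. The call needed most of the libraries: the log2 difference was 0.77 with adjusted p = 0.026 in limma without shCTCF library 2, 0.53 with 0.10 without shCTCF library 3, 0.60 with 0.29 without shLuc library 2 and 0.69 with 0.22 without shLuc library 3. It was also lost without the filter on low values (adjusted p = 0.45 in limma). The same settings took the count over all genes to between 0 and 49 higher and 0 and 35 lower calls.

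Mrps2, another small subunit protein with a bacterial counterpart, differed most in the opposite direction. It had 48.1 and 46.1 RPKM in shCTCF libraries, against 60.6 and 66.7 RPKM in shLuc libraries. The groups did not overlap, and each was tight relative to the gap. The log2 difference of −0.42 (SE 0.09) narrowly missed the threshold (limma, adjusted p = 0.060). It passed with each library centred on its median (adjusted p = 0.0498, limma) and with a minimum mean of 5 RPKM (adjusted p = 0.048, limma). It missed with a pseudocount of 0.1 (adjusted p = 0.066, limma) and under quantile normalization (adjusted p = 0.067, limma). Without the filter on low values it missed as well (adjusted p = 0.42, limma). With 1 library left out, the log2 difference ran from −0.49 to −0.36. The authors' deposited table lists Mrps2 as lower, with a log2 fold change of −0.45 and an FDR of 4.1e-04. Mrps16 and Mrps2 were the only members in that table, 3.03% of the 66, beside 4.20% of all genes with a mean of 1 RPKM or more.

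Among all 9898 tested genes, limma called 69 higher (0.697%) and 59 lower (0.596%) in shCTCF cells, 1.29% in either direction. Against this background, 1 member called higher and 0 called lower of 66 is a share near that of all genes. At an unadjusted p under 0.05 in limma, 8 members were higher and 1 was lower, beside 8.19% and 5.93% of all tested genes. The length trend described below could be removed only for the 7468 tested genes with a recovered length. Among these, 56 genes were called higher and 47 lower as fitted above, and 55 higher and 77 lower with the trend removed. Of the 63 members in that set, which leaves out Mrps2, Mrpl1 and Mrps10, Mrps16 was the 1 called in both. On simulated data of 7405 genes for this comparison, the test found 46.3% of 1.5-fold changes and 89.6% of 2-fold changes, with 15 false calls among 172. Smaller changes in members can therefore have gone uncalled. Members had a median of 218.5 recovered reads per library (range 13 to 723, 63 members). Recovered reads can be too low where reads and length share a common factor. Counting error alone, taken from recovered reads, gave a median SE of 0.096 on the log2 scale, close to the median limma SE of 0.099.

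Large subunit members were led by Mrpl1, Mrpl21, Mrpl34 and Mrpl51. Mrpl1, whose bacterial counterpart forms the other stalk of the large subunit, had 13.3 and 15.6 RPKM in shCTCF libraries, against 12.3 and 9.22 RPKM in shLuc libraries. Mrpl21 had 30.6 and 32.5 RPKM in shCTCF libraries, against 24.2 and 24.0 RPKM in shLuc libraries. Mrpl34 had 31.7 and 33.8 RPKM in shCTCF libraries, against 23.3 and 28.5 RPKM in shLuc libraries. In all 3, both shCTCF libraries lay above both shLuc libraries, with the narrowest gap in Mrpl1. The log2 differences were 0.40 for Mrpl1 (SE 0.15), 0.37 for Mrpl21 (SE 0.09) and 0.33 for Mrpl34 (SE 0.11). None passed the test, with adjusted p = 0.25, 0.093 and 0.22 in limma. With 1 library left out, Mrpl1 ran from 0.21 (without shLuc library 3) to 0.59 (without shLuc library 2). Mrpl34 ran from 0.19 (without shLuc library 2) to 0.47 (without shLuc library 3), and Mrpl21 from 0.33 to 0.42. Mrpl51, a protein specific to mitochondria, had 33.3 and 40.6 RPKM in shCTCF libraries, against 31.6 and 29.7 RPKM in shLuc libraries, a difference of 0.25 (SE 0.11, limma, adjusted p = 0.34) that was 0.11 without shCTCF library 3 and 0.40 without shCTCF library 2. Next to these stood Mrpl46 at 0.25, Mrpl4 at 0.23 and Mrpl11 at 0.21 on the same scale, also not called, and Mrpl11 belongs to the base of the Mrpl12 stalk.

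At the other end of the large subunit were Mrpl50, Mrpl38, Mrpl35 and Mrpl15. Mrpl50 had 22.2 and 23.1 RPKM in shCTCF libraries, against 23.3 and 26.9 RPKM in shLuc libraries. Mrpl38 had 29.0 and 28.3 RPKM in shCTCF libraries, against 32.2 and 29.8 RPKM in shLuc libraries. Mrpl15 had 23.4 and 26.5 RPKM in shCTCF libraries, against 26.7 and 26.9 RPKM in shLuc libraries. These 3 had both shCTCF libraries below both shLuc libraries, by gaps no wider than the distance between libraries of 1 group, while Mrpl35 overlapped. The log2 differences were −0.14 for Mrpl50 (SE 0.10), −0.11 for Mrpl38 (SE 0.09), −0.10 for Mrpl35 (SE 0.12) and −0.10 for Mrpl15 (SE 0.09). None passed the test (limma, adjusted p from 0.60 to 0.78).

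In the small subunit, Mrps34 followed Mrps16. This protein, specific to mitochondria, had 78.7 and 86.9 RPKM in shCTCF libraries, against 71.4 and 62.6 RPKM in shLuc libraries. The groups did not overlap, and the difference of 0.30 (SE 0.09) did not pass the test (limma, adjusted p = 0.20). Mrps30, which despite its name sits in the large subunit, had 50.8 and 45.1 RPKM in shCTCF libraries, against 55.6 and 50.4 RPKM in shLuc libraries, a difference of −0.14 (SE 0.09, limma, adjusted p = 0.57). Mrps12, a protein of the decoding centre, had 33.0 and 30.4 RPKM in shCTCF libraries, against 33.5 and 31.9 RPKM in shLuc libraries. Its groups overlapped (−0.05, SE 0.09, limma, adjusted p = 0.89).

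Mrps18a, Mrps18b and Mrps18c are paralogs that all descend from 1 bacterial protein, and Mrps18a is known to sit in the large subunit. Mrps18a had 48.2 and 59.0 RPKM in shCTCF libraries, against 53.7 and 46.2 RPKM in shLuc libraries. Mrps18b had 27.5 and 21.9 RPKM in shCTCF libraries, against 22.7 and 26.0 RPKM in shLuc libraries. Mrps18c had 10.1 and 15.2 RPKM in shCTCF libraries, against 11.0 and 14.0 RPKM in shLuc libraries. The paralogs kept the order Mrps18a, Mrps18b, Mrps18c in every library, and in none of them were the groups apart. The log2 differences were 0.10 (SE 0.12), 0.02 (SE 0.13) and −0.0019 (SE 0.18), with adjusted p of 0.79 or more in limma.

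**Figure D2:**
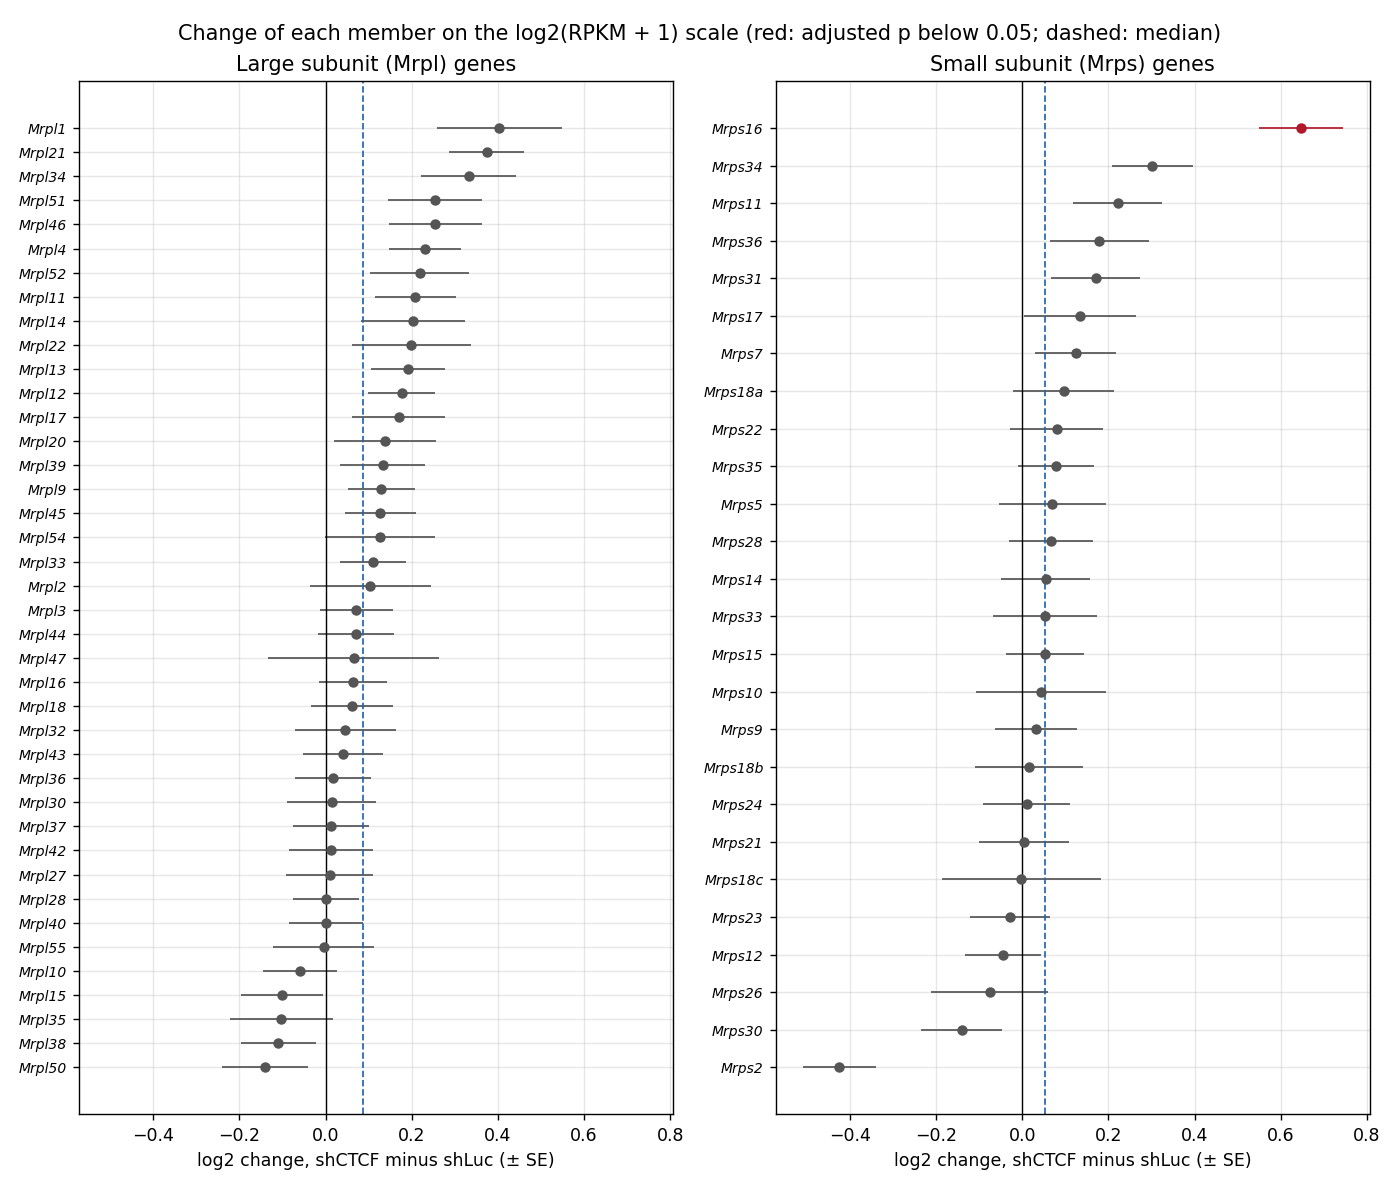
Difference of each member between shCTCF and shLuc on the log2(RPKM + 1) scale, with its limma standard error as a bar, large subunit genes on the left and small subunit genes on the right. The dashed lines are the medians, 0.088 and 0.054, which were −0.0086 and 0.0016 with the length trend removed over the 39 and 24 members with a recovered length, and the red point is Mrps16, the 1 member called.

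As a group, 53 of the 66 members had a positive log2 difference and 13 a negative one, with a median of 0.068. Over the 63 members with a recovered length the median was 0.070, and −0.0026 once a trend with gene length was removed. Of all tested genes, 53.3% were positive, with a median of 0.012. Both shCTCF libraries lay above both shLuc libraries in 22 members (33.3%) and below in 4 (6.06%), beside 24.1% and 19.9% of all tested genes (44.0% in either direction), and 40 members overlapped. Of the 22, those not yet named were Mrpl9, Mrpl13, Mrpl14, Mrpl16, Mrpl17, Mrpl39, Mrpl45, Mrps11, Mrps31, Mrps35 and Mrps36, with log2 differences from 0.06 (Mrpl16) to 0.22 (Mrps11). The differences were small: 60 of the 66 were under 0.26 in size. The median size of the difference between the hairpins was 0.099, while the libraries of 1 group differed by a median of 0.15 in shCTCF and 0.12 in shLuc cells. The shift was larger in shCTCF library 3 than in shCTCF library 2. Relative to the shLuc mean, members had a median of 0.020 in shCTCF library 2 and 0.13 in shCTCF library 3, beside −0.023 and 0.023 in shLuc libraries 2 and 3. Without shCTCF library 2 the median of the members was 0.13, and without shCTCF library 3 it was 0.020. Levels summed over the members were 2696 and 2894 RPKM in shCTCF libraries, against 2587 and 2638 RPKM in shLuc libraries. The means were 2795 ± 140 RPKM in shCTCF cells and 2613 ± 36.1 RPKM in shLuc cells (SD, n = 2 each). This was 0.702% ± 0.023 of all RPKM in shCTCF cells and 0.671% ± 0.013 in shLuc cells. An exact permutation test of 2 libraries against 2 cannot give a two-sided p below 0.333, so none was used.

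Counted by the subunit in the symbol and by the number in the symbol, a rough stand-in for origin, the medians lay close together. This split counts Mrps30 and Mrps18a with the small subunit, although both proteins sit in the large subunit. Large subunit members had a median of 0.088, with 33 of 40 positive, and small subunit members had 0.054, with 20 of 26 positive. Members of the bacterial type (numbered up to 36 in the large and 21 in the small subunit) had a median of 0.070, with 34 of 40 positive. Members with higher numbers, counted here as specific to mitochondria, had a median of 0.066, with 19 of 26 positive. These types were assigned by number alone, so single members can stand in the wrong one. Over members with a recovered length, and with the length trend removed, the medians were −0.0086 for the large subunit (39 members, 0.071 before removal) and 0.0016 for the small subunit (24 members, 0.061 before). They were 0.0075 for the bacterial type (37 members, 0.071 before) and −0.014 for the mitochondria-specific type (26 members, 0.066 before). The summed level of the large subunit was 1697 and 1807 RPKM in shCTCF libraries, against 1605 and 1657 RPKM in shLuc libraries. That of the small subunit was 998.9 and 1088 RPKM in shCTCF libraries, against 981.6 and 980.8 RPKM in shLuc libraries. The higher value was in shCTCF library 3 for both subunits.

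Gene length moved with these differences. Mitochondrial ribosomal protein genes are short, with a median recovered gene model of 1043 bp, against 2523 bp over all tested genes with a recovered length. Over the latter, recovered lengths ran from 21 to 396492 bp, so the length of a single gene is uncertain. Among the other tested genes, the 869 under 1000 bp had a median log2 difference of 0.11, and the 6535 of 1000 bp or more had 0.0050. In short genes the shift was 0.051 in shCTCF library 2 and 0.18 in shCTCF library 3 relative to the shLuc mean, the same order as in the members. The 28 members under 1000 bp had a median of 0.081, and the 35 of 1000 bp or more had 0.070. Below 750 bp the medians were 0.13 for 17 members and 0.15 for 503 other genes. From 750 to below 1000 bp they were 0.061 for 11 members and 0.071 for 366 other genes. They were 0.064 for 21 members and 0.047 for 879 other genes from 1000 to below 1500 bp. From 1500 to below 2000 bp they were 0.071 for 9 and 0.024 for 1013, and from 2000 to below 3000 bp 0.13 for 3 and 0.0045 for 1709. Each longer class held 1 member, at −0.10 and 0.17, beside −0.0060 and −0.012 for the other genes. Both shCTCF libraries lay above both shLuc libraries in 32.1% of the short members and 34.3% of the long ones, beside 35.2% and 22.7% of the other genes of those lengths. Removing the length trend from each library left Mrps16 at 0.49 (adjusted p = 0.016 in limma), Mrps34 at 0.22, Mrpl21 at 0.20 and Mrpl34 at 0.20. The same step put Mrps12 at −0.26, Mrps18c at −0.17, Mrpl42 at −0.12 and Mrpl33 at −0.072, none of them called. Values after this step depend on the recovered length of each gene, such as 342 bp for Mrps12 and 496 bp for Mrpl21. Such a length can be too short by a common factor of reads and length. Mrps2 and Mrpl1 have no recovered length.

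**Figure D3:**
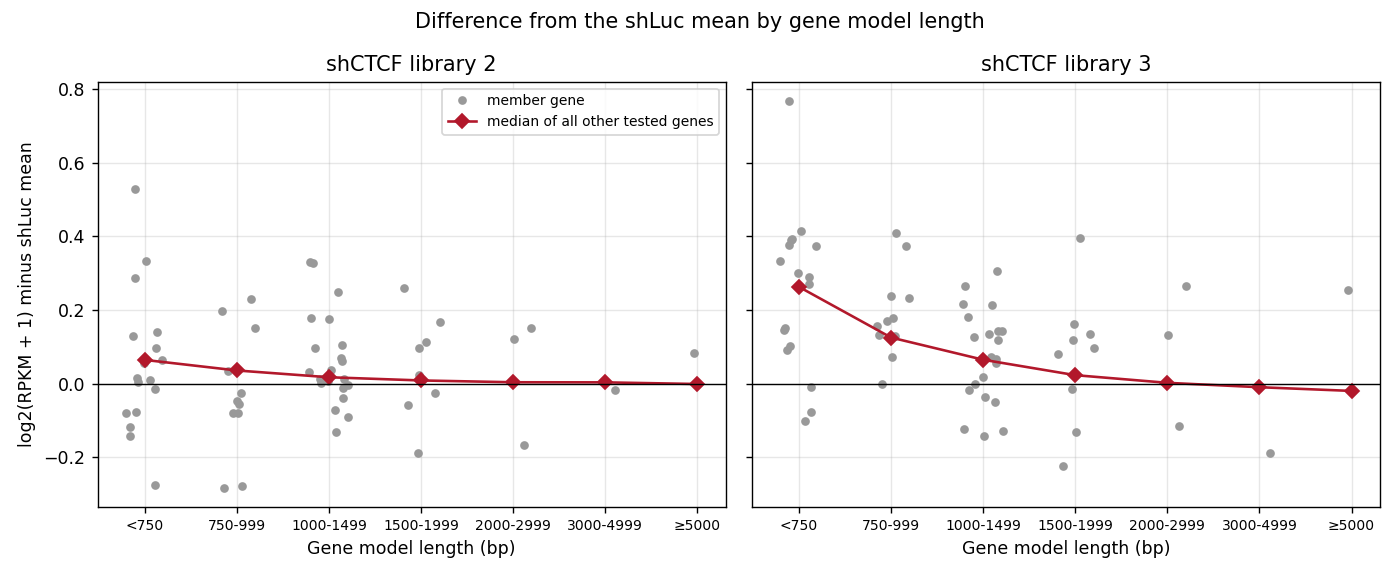
Difference from the shLuc mean on the log2(RPKM + 1) scale against gene model length in bp, for shCTCF library 2 on the left and shCTCF library 3 on the right. Grey points are members and red diamonds the medians of all other tested genes in each length class, which reach 0.065 in library 2 and 0.26 in library 3 below 750 bp.

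Lists of other genes for mitochondrial translation had medians between −0.074 and 0.036, and all but the assembly and synthetase lists changed the sign of their median when 1 library was left out. Of 20 tested genes for assembly of the mitochondrial ribosome and modification of its RNA, 6 were positive, with a median of −0.074 and 0 called in limma (2 lower at an unadjusted p under 0.05). Its median ran from −0.11 to −0.038 with 1 library left out, and was −0.11 before and −0.14 after removal of the length trend over the 16 genes with a recovered length. The lowest p belonged to Mettl15, a methyltransferase of the small subunit RNA, at −0.42 (SE 0.17, limma, adjusted p = 0.33), and to Eral1, a GTPase of small subunit assembly, at −0.27 (SE 0.11, limma, adjusted p = 0.34). Nsun4, which acts in large subunit assembly, stood at 0.27 (SE 0.13, limma, adjusted p = 0.40). Of 11 translation factors, 5 were positive with a median of −0.022 (−0.024 to 0.052 with 1 library left out), among them Tufm, the elongation factor Tu of mitochondria, at 0.094 (SE 0.08). Of 19 mitochondrial aminoacyl-tRNA synthetases, 11 were positive with a median of 0.0085, and the seryl enzyme Sars2 had the smallest p (0.45, SE 0.12, limma, adjusted p = 0.14). Sars2 had 9.88 and 9.89 RPKM in shCTCF libraries, against 7.59 and 6.40 RPKM in shLuc libraries, without overlap. Of 15 genes for transcription or unwinding of mitochondrial DNA and processing of its RNA, 11 were positive with a median of 0.029 (−0.023 to 0.070 with 1 library left out). Peo1, the mitochondrial DNA helicase Twinkle, was at 0.33 (SE 0.11, limma, adjusted p = 0.22), and Tfb2m, a transcription factor of mitochondrial DNA, was at −0.30 (SE 0.13, limma, adjusted p = 0.34). The translation factors, synthetases and genes for mitochondrial DNA and its RNA had 0 called in limma, with 2 higher and 1 lower at an unadjusted p under 0.05 among them. Of 5 tested proteins of the mitochondrial ribosome under other symbols, such as Ptcd3 and Ict1, 4 were positive with a median of 0.036 (−0.061 to 0.097 with 1 library left out), and all 5 overlapped between groups.

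Of 9 tested regulators of nuclear genes for mitochondria, 4 were positive with a median of −0.013 (−0.038 to 0.057 with 1 library left out) and 0 called in limma, with 2 higher at an unadjusted p under 0.05. These were Gabpb2 and Myc. Gabpb2, which encodes a subunit of the GABP transcription factor, had 45.5 and 44.8 RPKM in shCTCF libraries, against 34.0 and 37.6 RPKM in shLuc libraries (0.33, SE 0.09, limma, adjusted p = 0.14). The authors' deposited table lists it as higher with an FDR of 0.0063. Myc, a growth regulator, had 177.7 and 177.3 RPKM in shCTCF libraries, against 159.8 and 148.4 RPKM in shLuc libraries (0.20, SE 0.08, limma, adjusted p = 0.27). Neither gene's groups overlapped.

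The nearest comparison is with the cytosolic ribosome and with the complexes that the mitochondrial ribosome serves. Of 70 tested cytosolic ribosomal protein genes, 65 were positive with a median of 0.19, 0 called and 28 higher at an unadjusted p under 0.05 in limma. Rps19 had the smallest p (0.38, SE 0.08, limma, adjusted p = 0.070). Of 69 tested nuclear genes of oxidative phosphorylation subunits, 56 were positive with a median of 0.12. Atp5k, a subunit of ATP synthase, was the 1 called, with 177.3 and 184.6 RPKM in shCTCF libraries, against 129.4 and 137.9 RPKM in shLuc libraries (0.43, SE 0.08, limma, adjusted p = 0.042). That call was lost with the length trend removed, under quantile normalization, without the filter on low values, and when shCTCF library 3, shLuc library 2 or shLuc library 3 was left out. Relative to the shLuc mean, the cytosolic list had a median of 0.10 in shCTCF library 2 and 0.28 in shCTCF library 3, and the oxidative phosphorylation list 0.039 and 0.21. Their gene models were shorter still, with medians of 658.5 bp and 649 bp. With the length trend removed, the list medians were 0.075 over 62 genes (0.18 before) and 0.016 over 66 genes (0.11 before). The difference between these lists and the members was not tested.

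Upstream sequences of the members held motifs of several factors. RefSeq held 61 windows, from 250 bases before to 50 bases after a start, for 58 of the 66 members. Their median GC content was 58%, beside 60.7% in 8096 windows of other tested genes. An NRF1 motif (GCGCA and GCGC, separated by any 1 base), for a factor known to act on nuclear genes for mitochondria, was in 19.7% of member windows, 10.9% of windows of other tested genes and 4.58% of windows of all other genes. An ETS motif of the GABP type (CCGGAAG) was in 34.4%, 18.9% and 8.81% of the same sets, and a YY1 motif (AAGATGGCG) in 11.5%, 3.24% and 1.39%. A GC box (GGGCGG) was in 52.5%, 63.3% and 35.6%, and a TATA box (TATAAA) in 6.56%, 6.77% and 13.6%. A core of the CTCF motif (CC, AG and GGC in that order, with 3 and then 2 free bases between them) was in 14.8% of member windows, beside 13.0% for other tested genes and 8.60% for all other genes. Both strands were searched, and matches of different motifs could overlap. Of the 3 genes whose upstream stretches are printed above, the windows of Mrps16 and Mrpl21 had no CTCF core match, and that of Mrpl12 had one running past the end of the printed stretch. A match describes letters only.

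Neighbouring genes were looked up for Mrps16, Mrps2 and Mrpl21, a choice made after the values were seen, by gene order in RefSeq GRCm38.p6. On chromosome 14, the nearest gene on one side of Mrps16 was Dnajc9, a histone co-chaperone, with 71.0 and 73.2 RPKM in shCTCF libraries, against 70.8 and 78.1 RPKM in shLuc libraries, so the groups overlapped. On the other side Ttc18 was listed at 0 in all 4 libraries. The next genes out were Fam149b, at 0.26 (SE 0.09, limma, adjusted p = 0.26), and Anxa7, an annexin, at 0.091 (SE 0.09, limma, adjusted p = 0.73). On chromosome 2, 1700007K13Rik and Gbgt1 flanked Mrps2, the first with under 1 RPKM and the second listed at 0 in all 4 libraries, as was Ppp1r26 further out. Ralgds, an exchange factor for Ral GTPases and the second gene from Mrps2 on one side, had 25.9 and 25.1 RPKM in shCTCF libraries, against 36.8 and 33.8 RPKM in shLuc libraries. That difference of −0.45 (SE 0.09, limma, adjusted p = 0.057) was close to that of Mrps2 in size and direction, and the authors' deposited table lists Ralgds as lower with an FDR of 2.3e-04. On chromosome 19, Ighmbp2, a helicase, and Cpt1a, the carnitine palmitoyltransferase of fatty acid import, flanked Mrpl21 and overlapped between groups (−0.026 and 0.018). The gene beyond Cpt1a, Mtl5, was called higher, with 15.3 and 14.0 RPKM in shCTCF libraries, against 7.21 and 6.15 RPKM in shLuc libraries (1.03, SE 0.12, limma, adjusted p = 0.0091). No source used here states how strand was treated in counting, so reads of overlapping antisense genes cannot be told apart.

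**Figure D4:**
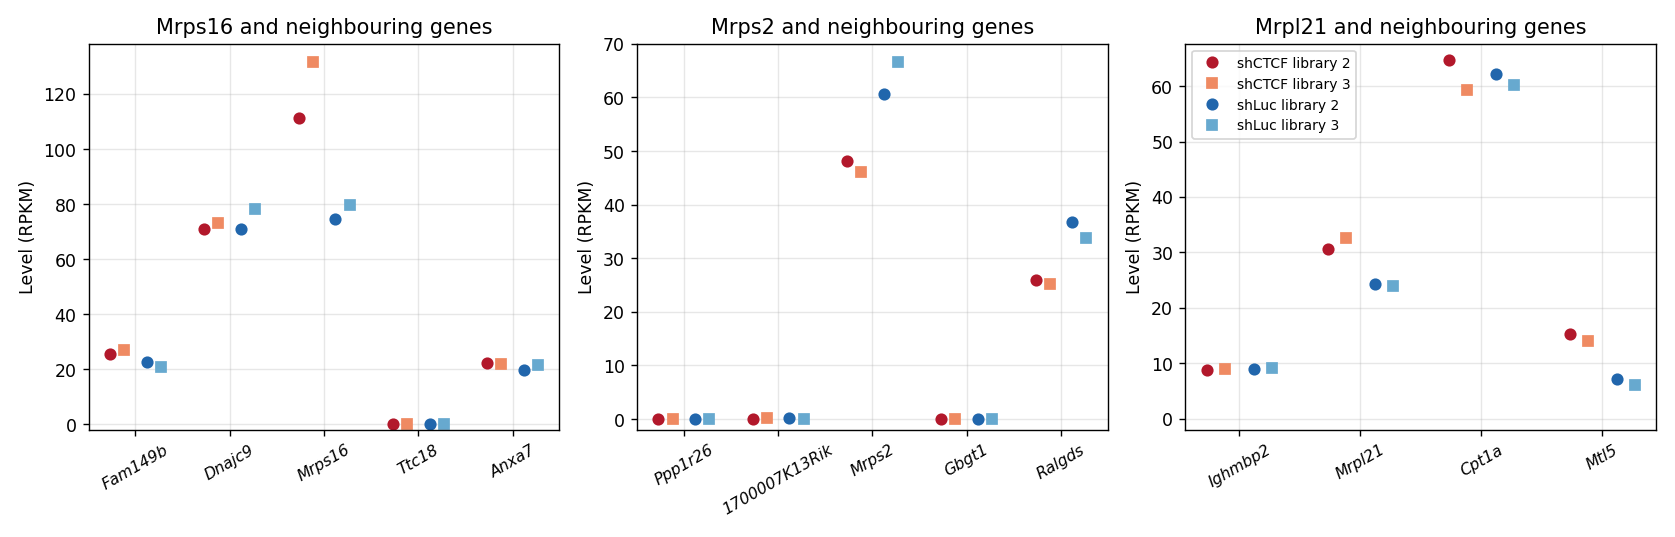
Levels in RPKM of Mrps16, Mrps2 and Mrpl21 with their neighbours in chromosome order, 1 panel per member, with shCTCF libraries in reds to the left of shLuc libraries in blues for each gene. Mrps16 is higher in shCTCF while Dnajc9 overlaps, Mrps2 and Ralgds are both lower in shCTCF, and Mtl5 is higher in shCTCF.

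A further 9 genes of the family shared a row with an overlapping gene, which leaves their own level unknown, and 0 of these rows passed the test in limma. Of the 9, only the row of Mrpl24 with Rrnad1 had an unadjusted p under 0.05 in limma, at 0.21 (SE 0.09, adjusted p = 0.34), with 37.0 and 34.5 RPKM in shCTCF libraries, against 29.6 and 31.9 RPKM in shLuc libraries. The row of Mrpl19 with AW146020 was lower by less than its error, at −0.077 (SE 0.10).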

How the data were processed

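Expression was deposited by the authors as RPKM, in 22119 rows named by symbol and RefSeq transcript. Reads were aligned with Bowtie2 to mm9, per the submitters' processing notes. Not given in the sources used here are the counter, the annotation release and the read cleaning. For 435 changed genes, the authors' deposited table gives log2 fold changes with their p-value and FDR, and numbers the same libraries 1 and 2, as the titles do. Columns were used as unpaired replicates of a hairpin for that reason. Of 21 samples, 17 were not analysed here. Symbols with several rows were represented by their highest row. Of the family, 1 gene is not reported here.

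Where a row held a single transcript, values were searched for whole reads (relative tolerance 2e-09) and a whole gene length (tolerance 0.001 bp). This succeeded in 98.0% of 7035 such rows with a mean of 1 RPKM or more and in 20.6% of 2905 rows of several transcripts. The search returned the smallest whole numbers that fitted. Where all reads of a row and its length share a common factor, recovered reads and length are therefore too low by that factor. For a gene of 1 kb, 1 read is worth 0.163 to 0.230 RPKM. Libraries of 1 group differed beyond sampling noise (mean chi-square per row 2.05 for shCTCF and 2.68 for shLuc), so none was treated as a second deposit of another. This does not show separate cultures.

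Genes with a mean of 1 RPKM or more (9898) were fitted on log2(RPKM + 1) in R 4.3.3 by limma 3.58.1 (moderated variances with a trend), a scale that understates changes of low genes, with no covariate and Benjamini-Hochberg adjustment at 0.05. Members that were called, the 6 most positive, the 6 most negative, the 4 highest in level, the Mrps18 paralogs, Mrpl12, Mrps12 and those in the authors' table are given in full. Of other lists, called members, up to 3 with the smallest p and the 1 highest in level could be named. Members and lists were chosen with earlier results of these data known. Simulated data used a dispersion of 0.005. Counting errors cover counting only. Alternatives covered the pseudocount, the filter, scaling, limma-voom on recovered reads, a replicate block, each library left out and, chosen after seeing the data, the removal of a length trend. Calculations used Python 3.11.15, numpy 2.4.6, pandas 2.3.3 and matplotlib 3.10.9.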

Additional observations from a re-analysis of the deposited data

How the results depend on the processing

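Among the mitochondrial ribosomal protein genes, the call of Mrps16 kept its side of the threshold under a pseudocount of 0.1, a minimum mean of 5 RPKM, quantile normalization, centring, limma-voom on recovered reads, the replicate block and removal of the length trend. Without the filter on low values 0 members and 0 genes in either direction were called, and Ctcf, at −0.89, no longer passed (adjusted p = 0.22 in limma). Leaving out 1 library at a time gave 0 to 1 members higher and 0 lower, 0 to 49 genes higher, 0 to 35 lower, and 0 to 9 genes called in the other lists against 1, with Ctcf between −0.92 and −0.86. Ctcf was not called without shLuc library 2 or 3 (adjusted p = 0.15 each in limma). The replicate block used the header numbers, which the labels tie to no batch (correlation of deviations 0.165). It gave 294 higher and 213 lower genes, 3 members higher (Mrps16, Mrpl21, Mrpl34), 1 lower (Mrps2, adjusted p = 0.012 in limma) and 28 genes in the other lists. Limma-voom gave 223 higher and 185 lower genes and 27 in the other lists, and covered 63 members. Centring and the minimum of 5 RPKM each gave 1 member lower (Mrps2) and 2 genes in the other lists, and quantile normalization gave 0 in those lists. Removing the length trend, which covered 7468 genes and 63 members without Mrps2 and Mrpl1, gave 0 there too, with medians of −0.0026 for those members, −0.0086 for the large subunit and −0.014 for the mitochondria-specific type. With 1 library left out these medians ran from 0.020 to 0.13 for all members, 0.035 to 0.14 for the large subunit, 0.012 to 0.13 for the small subunit, 0.020 to 0.15 for the bacterial type and 0.025 to 0.11 for the mitochondria-specific type. The sign turned in 6 of the 19 members followed through the alternatives, none of them called. Removing the length trend gave −0.12 for Mrpl42, −0.072 for Mrpl33 and −0.048 for Mrps18b. Limma-voom gave −0.0066 for Mrps18b and 0.025 for Mrps18c, and quantile normalization −0.014 for Mrpl42. With 1 library left out, Mrpl42 ran from −0.084 to 0.11, Mrps18a from −0.047 to 0.24, Mrps18b from −0.14 to 0.17, Mrps18c from −0.28 to 0.27 and Mrps12 from −0.10 to 0.011. The cause was not tested. A group left with 1 library was assumed to vary like the other. Depth limits the members with few reads. Mrpl22 had the fewest recovered, 13 to 23 per library, which can be too low by a common factor of reads and length.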
